A study of Mus musculus with 17 samples.

Results

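The 9 genes described here encode chains of collagens that do not build the large fibrils of scar tissue: the beaded-filament collagen VI (Col6a1, Col6a2, Col6a3), the network collagen VIII (Col8a1), the fibril-associated collagens XII, XIV and XVI (Col12a1, Col14a1, Col16a1) and the multiplexin collagens XV and XVIII (Col15a1, Col18a1). They were chosen by name and by no rule on their values, though with earlier results of these data known. They come from the 44 collagen genes among the 31053 genes of the count table. Each of the 9 was listed once and passed the filter for testing. The counts come from bulk MARS-seq, which reads the 3′ ends of poly-A transcripts, of cardiac fibroblasts (CFs) sorted as GFP+/CD31-/CD45- cells from infarcted hearts of Collagen1a1-GFP+ C57BL/6 mice, 8 to 10 weeks old. All mice carried the reporter and all were infarcted, and the groups differ in the time since infarction. There were 3 libraries each at 1, 2, 4 and 6 days post-infarction (dpi), 4 at 3 dpi and 1 at 5 dpi, 17 in all, with no uninjured group used here. The sort selects cells in which the Col1a1 promoter drives GFP, and the study's methods call the libraries of a population biological replicates, without saying how many mice went into each. In the labels the names of the 3 dpi libraries are formed differently from those of all other days, so whatever else set these libraries apart cannot be told apart from the day where 3 dpi is compared.

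Collagen VI is assembled inside the cell from 3 different chains into tetramers that are secreted and joined end to end into beaded microfilaments, which lie between cells, basement membranes and fibrillar collagen. Fibril-associated collagens do not form fibrils of their own: they sit on the surface of collagen I fibrils and link them with other matrix molecules. Collagen VIII is a short-chain collagen that forms open networks, best known from vessel walls and Descemet's membrane. Multiplexins are collagen proteoglycans of the basement membrane zone, and cleavage of the C-terminal end of collagen XVIII releases endostatin. Fibroblasts are a main source of collagens VI, XII and XIV in connective tissue.

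Depth was 8021815 to 22029938 counts per library, with a median of 14123952, and each of the 9 genes had between 172 and 24820 counts in every library. All 7 fibroblast markers were detected, with a sum of 8686 to 23312 CPM, counts scaled to a common library size. The sum of 7 leukocyte markers was 7.63 to 29.79 CPM at 1 and 2 dpi, 39.9 to 176.95 CPM at 3 dpi, 49.61 CPM at 5 dpi and 12.76 to 22.83 CPM at 4 and 6 dpi. Of these, Cd3e had no count in any library, and the macrophage gene Lyz2 was higher at 3 to 5 than at 1 and 2 dpi (log2 fold change 2.92, SE 0.70, edgeR adjusted p = 0.011). The sum of 8 endothelial markers was 16.92 to 95 CPM. Of the 7 tested, only Egfl7 passed from 2 to 3 dpi, higher at 3 dpi (2.84, SE 0.66, edgeR adjusted p = 0.024), against 1.82% of all genes higher. In this step Tek (-0.92, SE 0.27) and Pecam1 (-1.03, SE 0.68) had estimates of the opposite sign, beside a median of 2.09 for the 7. The sum of 4 Schwann cell markers was 4.47 to 16.98 CPM. The sum of 6 mural cell markers was 40.39 to 84.29 CPM at 1 and 2 dpi, 81.0 to 205.54 CPM at 3 to 5 dpi and 132.21 to 160.01 CPM at 6 dpi. Of the 6, 3 were higher at 3 to 5 than at 1 and 2 dpi, against 5.25% of all genes tested. The sum of 5 cardiomyocyte markers was 54.85 to 106.94 CPM at 6 dpi against 3.62 to 50.86 CPM before. Of the 5, 4 were lower at 3 to 5 dpi than at 6 dpi, against 6.25% of all genes tested. The sum of 3 epicardial and mesothelial markers was 5.59 to 106.26 CPM in 16 libraries and 371.08 CPM in 6 dpi replicate 2. The part of these other cells in the results was not tested. In these bulk libraries more expressing cells and more RNA per cell cannot be told apart. The library of 3 dpi replicate 2 was the farthest from the others of its day in the levels of 8 of the 9 genes, though in 0 of them beyond Dixon's 95% critical value. Over all genes it stood apart. The chi-square per degree of freedom of its pairs was 161.28 to 212.55, against 22.86 to 36.07 for the other pairs of 3 dpi. In the other days it was 21.83 to 124.32. Without this library, edgeR called 24.8% of all genes over the time course, against 15% with it. Y-linked counts exceeded those of Xist in the libraries of 2, 3 and 5 dpi and 2 of the 3 of 1 dpi, whereas those of 4 and 6 dpi had more Xist. The sex of the mice and the day therefore cannot be told apart between 3 and 4 dpi. They are also partly mixed where 3 to 5 dpi together are compared with 6 dpi or with 1 and 2 dpi.

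Over the time course, 5 of the 9 genes changed, against 15% of the 14030 genes tested (edgeR's quasi-likelihood F-test over 6 days, Benjamini-Hochberg adjusted p under 0.05 over all genes). They were the 3 fibril-associated genes Col12a1 (adjusted p = 0.00059), Col14a1 (0.00027) and Col16a1 (0.0011), the multiplexin gene Col18a1 (8e-04) and the collagen VI gene Col6a2 (0.045). The other 4 did not pass, with edgeR adjusted p of 0.11 for Col6a1, 0.14 for Col15a1, 0.26 for Col8a1 and 0.41 for Col6a3. DESeq2 called 7 of the 9, with Col6a1 and Col15a1 added, against 26.8% of all genes. All 9 genes had their lowest day mean at 1 dpi. For Col6a1, Col6a2, Col14a1, Col15a1, Col16a1 and Col18a1 the highest day mean was at 6 dpi, and for the remaining 3 it was in the single library of 5 dpi. Scaled to raw library sizes, Col14a1 was instead highest at 5 dpi. With the GC correction described further on, the day mean of Col18a1 was highest at 5 dpi too.

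**Figure D1:**
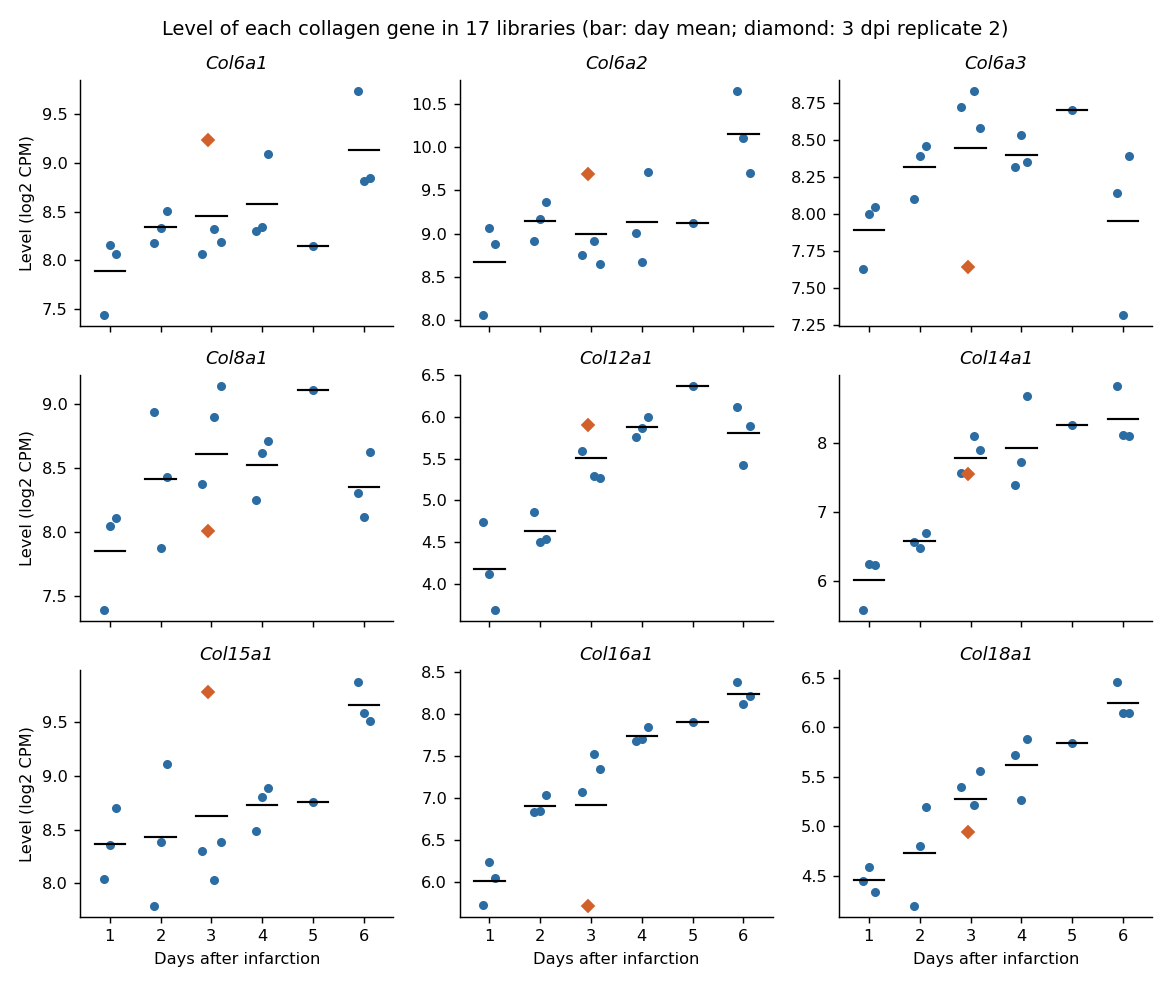
Level of each of the 9 collagen genes (log2 CPM, y axis, a separate scale per gene) against days after infarction (x axis) in 17 libraries, where each point is a library, each bar a day mean and the diamond 3 dpi replicate 2. The day means of Col6a1, Col6a2, Col14a1, Col15a1, Col16a1 and Col18a1 are highest at 6 dpi and those of Col6a3, Col8a1 and Col12a1 at 5 dpi, and for Col12a1 and Col14a1 every library from 3 dpi on lies above every earlier one.

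The days 3, 4 and 5 dpi, taken as the window in which reparative fibroblasts marked by Cthrc1 appear, were compared with the 2 days before them. The study set this window from bulk profiles that include this series, in which Cthrc1 and other markers peaked, and from CTHRC1 staining. The comparison is therefore not independent of how the window was chosen. In this window 4 of the 9 genes were higher, against 5.25% of all genes tested, and 0 of the 9 were lower, against 2.24%. The median log2 fold change of the 9 genes was 0.59, beside 0 for all genes tested. The 4 genes that rose were Col14a1, Col12a1, Col16a1 and Col18a1, by 3.29, 2.83, 2.14 and 1.96-fold. The remaining 5 had log2 fold changes of 0.18 to 0.59 and did not pass. DESeq2 called 4 genes higher and 0 lower, and these were the same genes, against 7.31% of all genes higher and 3.77% lower. Without the 3 dpi libraries these 4 genes passed as well by edgeR, with log2 fold changes of 1.81 for Col14a1, 1.67 for Col12a1, 1.33 for Col16a1 and 1.09 for Col18a1.

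Between the window and 6 dpi, 1 of the 9 genes was lower in the window, Col6a2, against 6.25% of all genes tested, and 0 were higher, against 5.29%. Here the median log2 fold change was -0.67 for the 9 genes and 0.01 for all genes. In all, 5 had an unadjusted p under 0.05 (Col6a1, Col6a2, Col15a1, Col16a1 and Col18a1), all with a lower window. DESeq2 called 4 of these 5, all but Col16a1, against 8.82% of all genes lower and 8.24% higher. The share of all genes at an unadjusted p under 0.05 is not given, here or for the steps between days. Counts at that threshold therefore have no background beside them. With libraries left out, both the number of the 9 genes that edgeR called lower in the window and the share of all genes so called changed. They were 5 and 11.3% without 3 dpi replicate 2, 3 and 7.29% without 4 dpi replicate 3, and 3 and 7.55% when the 5 dpi library was dropped. The values were 2 and 5.88% without 2 dpi replicate 1, 1 and 9.14% without 6 dpi replicate 3, and 0 without 6 dpi replicate 1 (2.12%) or replicate 2 (1.32%). This comparison and the one with 1 and 2 dpi share the libraries of the window and are not independent of each other. Sex and day are partly mixed here, since the libraries of 6 dpi had more Xist and those of 3 and 5 dpi more Y-linked counts.

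**Figure D2:**
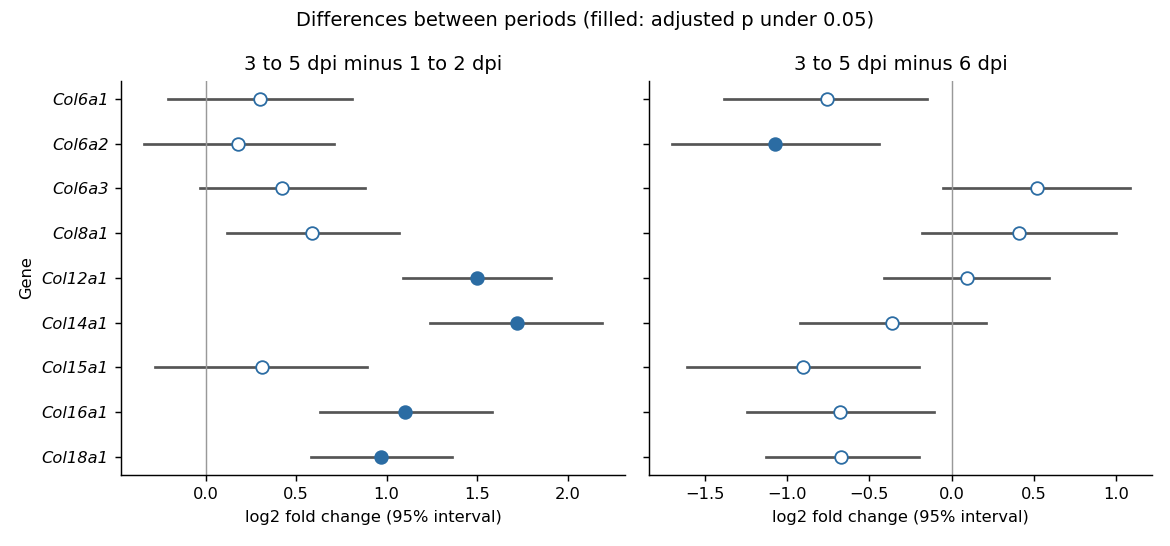
Log2 fold change (x axis) of each gene (y axis) in the window of 3 to 5 dpi against 1 to 2 dpi (left) and against 6 dpi (right), with 95% intervals from the edgeR fit and filled points for an adjusted p under 0.05. Filled on the left are Col12a1, Col14a1, Col16a1 and Col18a1, with intervals from 0.58 to 2.19, and filled on the right is Col6a2 alone.

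Of the steps between days, only that from 2 to 3 dpi gave a call. Between 1 and 2 dpi, 0 of the 9 genes passed in either direction, against 0.157% of all genes higher and 0.0214% lower, with 1 gene (Col16a1) at an unadjusted p under 0.05 and 0 calls by DESeq2 (0.556% of all genes higher, 0.185% lower). All 9 estimates were positive in this step, with a median of 0.42 on the log2 scale beside 0.01 for all genes. From 2 to 3 dpi, 1 gene was higher (Col14a1), against 1.82% of all genes, and 0 were lower, against 1.12%. DESeq2 called Col12a1 as well in this step, for 2 genes in all, against 4.7% of all genes higher and 2.73% lower. From 3 to 4 dpi 0 genes passed, against 1.63% higher and 1.08% lower, with Col16a1 at an unadjusted p under 0.05 and 0 calls by DESeq2 (3.11% of all genes higher, 3.15% lower). From 4 to 6 dpi 0 genes passed, against 0.235% higher and 0.278% lower, with 3 at an unadjusted p under 0.05 (Col6a2, Col15a1 and Col18a1) and 1 call by DESeq2 (Col6a2, against 3.15% of all genes higher and 2.6% lower).

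Among the chains of collagen VI, Col6a1 and Col6a2 followed each other from library to library and Col6a3 did not. Col6a1 (ENSMUSG00000001119) and Col6a2 (ENSMUSG00000020241) are neighbours on the minus strand of chromosome 10 on GRCm38 (chr10:76708792-76726168 and chr10:76595762-76623630), 85162 bases apart, and Col6a3 (ENSMUSG00000048126) is on chromosome 1 (chr1:90765923-90843971, minus strand). The bases just upstream of the 3 genes are shown as a description, and whether they bear on these levels was not tested. They are taken from the RefSeq promoter table of GRCm38.p6, written 5′ to 3′ on the minus strand and cut where the GENCODE gene model starts, so that Col6a1 keeps 126 bases and the others 250. Capitals mark the GC box GGGCGG or its reverse complement CCGCCC.
Col6a1: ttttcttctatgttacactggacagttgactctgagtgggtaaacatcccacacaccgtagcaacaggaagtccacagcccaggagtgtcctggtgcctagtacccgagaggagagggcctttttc
Col6a2: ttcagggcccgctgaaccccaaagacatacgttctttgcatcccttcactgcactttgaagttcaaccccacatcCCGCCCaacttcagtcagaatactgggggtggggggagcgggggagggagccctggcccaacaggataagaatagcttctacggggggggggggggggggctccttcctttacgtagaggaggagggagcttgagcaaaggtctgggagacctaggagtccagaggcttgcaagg
Col6a3: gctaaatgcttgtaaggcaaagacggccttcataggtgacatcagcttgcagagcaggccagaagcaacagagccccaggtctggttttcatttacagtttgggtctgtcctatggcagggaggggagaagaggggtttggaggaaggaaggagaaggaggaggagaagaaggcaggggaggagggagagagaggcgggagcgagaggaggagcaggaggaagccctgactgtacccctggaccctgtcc
They lie at chr10:76726169-76726294, chr10:76623631-76623880 and chr1:90843972-90844221. In the stretches shown, the GC box was found once, in that of Col6a2. A second entry of Col6a2 is not shown, since only 24 of its bases lie outside the gene model. It holds the box 11, 15 and 67 bases before its own start, not in those 24 bases. Of 32851 promoter entries, 32.7% hold it in their full 250 upstream bases. Of the 9 genes, 7 have entries in this table, 9 in all with both of Col6a2, of which 5 hold the GC box in the full 250 bases.

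Col6a2 was measured at 8.06, 9.07 and 8.88 log2 CPM at 1 dpi and at 8.91, 9.17 and 9.37 at 2 dpi. In the window it was at 8.75, 9.69, 8.91 and 8.65 at 3 dpi, at 9.01, 8.67 and 9.71 at 4 dpi and at 9.12 at 5 dpi. The 3 libraries of 6 dpi were at 10.65, 10.10 and 9.70. The 6 dpi libraries were thus above all others except that the lowest of them was level with 3 dpi replicate 2 and 4 dpi replicate 3. The mean was 10.15 ± 0.48 (SD, n = 3) at 6 dpi, and the window was lower by a log2 fold change of -1.07 (SE 0.30, edgeR adjusted p = 0.028), a 2.10-fold difference. The call was lost without 6 dpi replicate 1 (log2 fold change -0.79) or replicate 2 (-1.12), without the 3 dpi libraries (-1.05) and with only the days compared in the fit (-1.08). The call over the time course ended on leaving out any of 13 of 16 libraries, all but 3 dpi replicate 2, 4 dpi replicate 3 and 6 dpi replicate 3, with edgeR adjusted p from 0.0069 to 0.31 over the 16.

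Col6a1 stood at 7.44, 8.16 and 8.07 log2 CPM at 1 dpi, at 8.18, 8.33 and 8.51 at 2 dpi and at 9.74, 8.81 and 8.85 at 6 dpi. Between these days the values were 8.07, 9.24, 8.32 and 8.19 at 3 dpi, 8.30, 8.34 and 9.09 at 4 dpi and 8.15 at 5 dpi. The high libraries were those that were high for Col6a2, namely 3 dpi replicate 2, 4 dpi replicate 3 and those of 6 dpi. The difference of the window from 6 dpi was -0.76 (SE 0.29, edgeR adjusted p = 0.096) and did not pass, but it did without 3 dpi replicate 2 or without 4 dpi replicate 3, at -0.88 in both. Over the time course it passed without 3 dpi replicate 2. Across 17 libraries Col6a1 and Col6a2 had a Pearson r of 0.93, and 0.94 after the day means were taken out over 16 libraries, as a description of levels that share library and scaling.

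Col6a3, the chain whose cleaved C-terminal end is known as endotrophin, gave 7.63, 8.00 and 8.05 log2 CPM at 1 dpi and 8.10, 8.39 and 8.46 at 2 dpi. The values were 8.72, 7.64, 8.83 and 8.58 at 3 dpi, 8.32, 8.53 and 8.35 at 4 dpi, 8.70 at 5 dpi and 8.14, 7.32 and 8.39 at 6 dpi. The lowest libraries after 1 dpi were 6 dpi replicate 2 and 3 dpi replicate 2. The libraries of 2, 4 and 5 dpi were all above those of 1 dpi, whereas 3 and 6 dpi overlapped with it. The window differed from 1 and 2 dpi by 0.42 (SE 0.22, edgeR adjusted p = 0.27) and from 6 dpi by 0.52 (SE 0.27, edgeR adjusted p = 0.22), the latter of opposite sign to both other chains. Over the libraries Col6a3 had an r of -0.15 with Col6a1 and of -0.25 with Col6a2, and of 0.66 with Col8a1.

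**Figure D3:**
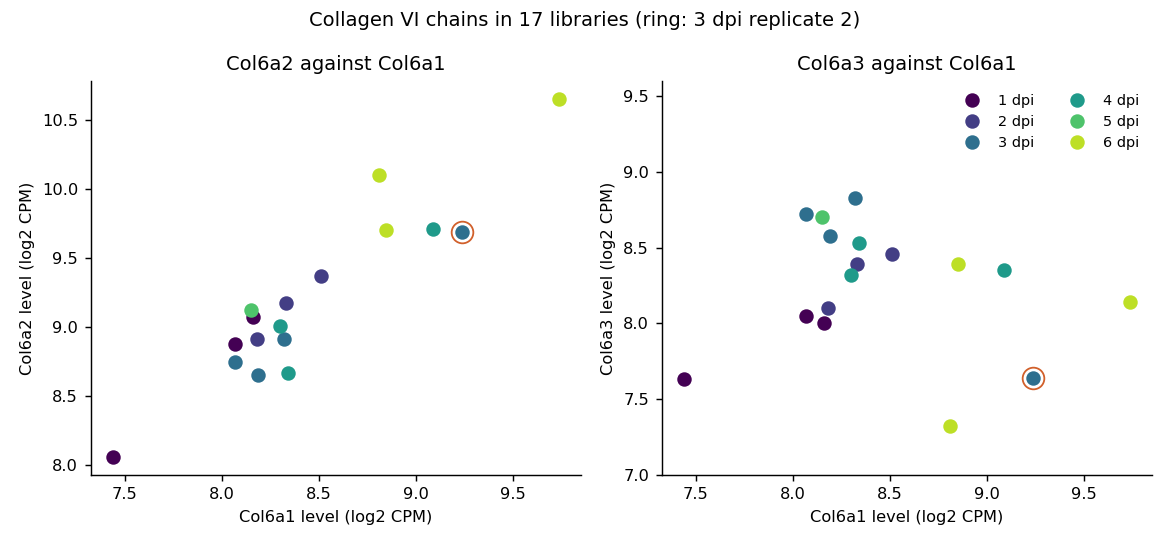
Levels (log2 CPM) of Col6a2 (left, y axis) and Col6a3 (right, y axis) against Col6a1 (x axis) in 17 libraries coloured by day, with 3 dpi replicate 2 ringed. Col6a2 rises along with Col6a1 (r = 0.93), whereas Col6a3 does not (r = -0.15). The libraries of 6 dpi, 3 dpi replicate 2 and 4 dpi replicate 3 lie at the right of both plots.

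The ratio of Col6a3 to the geometric mean of Col6a1 and Col6a2 within a library needs no scaling between libraries. Its log2 value was -0.62 to -0.12 at 1 and 2 dpi, a narrow range, with a mean of -0.41 ± 0.17 (SD, n = 6). In the window it was 0.31, -1.83, 0.22 and 0.16 at 3 dpi, -0.33, 0.02 and -1.06 at 4 dpi and 0.07 at 5 dpi. At 6 dpi it was -2.05, -2.14 and -0.88. The window mean of -0.31 ± 0.76 (SD, n = 8) was 1.38 above the 6 dpi mean of -1.69 ± 0.70 (SD, n = 3), a 2.6-fold difference, with p = 0.018 in a two-sided exact permutation test and 0.11 after Benjamini-Hochberg adjustment over 6 ratio tests. With 8 libraries against 3 the smallest p is 0.0061. Against 1 and 2 dpi the difference was 0.10 (exact permutation p = 0.77).

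**Figure D4:**
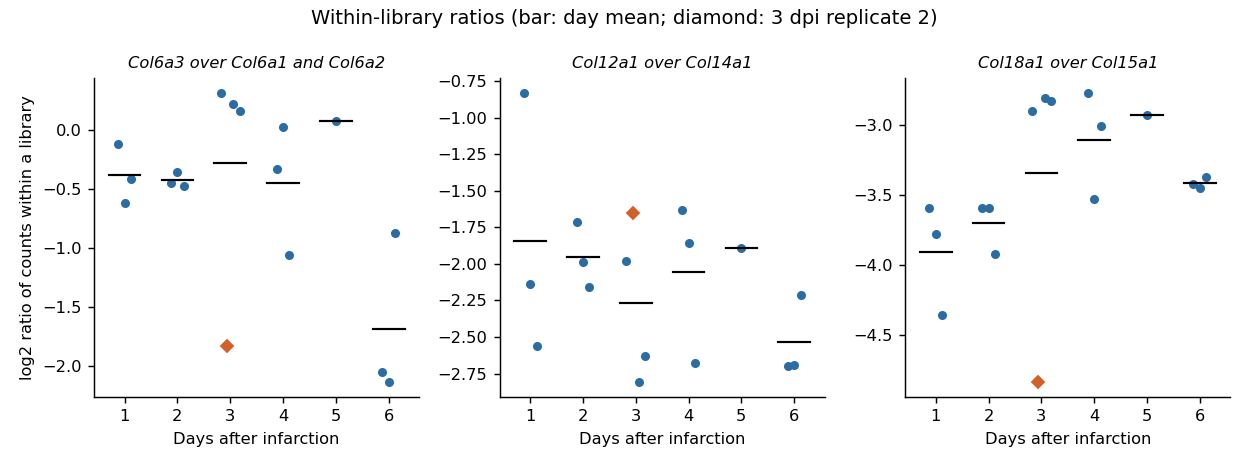
Log2 ratio of counts within a library (y axis) for Col6a3 over Col6a1 and Col6a2, Col12a1 over Col14a1 and Col18a1 over Col15a1, against days after infarction (x axis), with a point per library, bars for day means and a diamond for 3 dpi replicate 2. The first ratio lies between -2.14 and -0.88 at 6 dpi, and the diamond is at -1.83 in the first panel and at -4.84 in the third.

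Both large fibril-associated genes rose between the first 2 days and the window, and no library of the window overlapped with 1 or 2 dpi for either. The share of all genes tested that separated without overlap is not given, for this or the other comparisons, so such separations are only described. Col14a1 (ENSMUSG00000022371, chr15:55307750-55520803, plus strand) encodes the chain of collagen XIV, which binds collagen I fibrils together with decorin. It was at 5.57, 6.24 and 6.23 log2 CPM at 1 dpi and at 6.56, 6.48 and 6.69 at 2 dpi. From 3 dpi on it was at 7.56, 7.54, 8.10 and 7.90, then at 7.39, 7.72 and 8.68 at 4 dpi, at 8.26 at 5 dpi and at 8.82, 8.12 and 8.10 at 6 dpi. The window was higher by 1.72 (SE 0.23, edgeR adjusted p = 5.3e-05), and the step from 2 to 3 dpi alone was 1.22 (SE 0.30, edgeR adjusted p = 0.034). All 4 libraries of 3 dpi were above all 3 of 2 dpi. The call of that step was lost on leaving out any of 7 of 16 libraries (1 dpi replicate 3, any of 2 dpi, or 3 dpi replicate 1, 3 or 4), with log2 fold changes of 1.09 to 1.28. The call of the window was kept in every such fit.

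Col12a1 (ENSMUSG00000032332, chr9:79598991-79718831, minus strand) encodes collagen XII, which lies on collagen I fibrils of tissue under load. Its levels were 4.74, 4.11 and 3.68 log2 CPM at 1 dpi and 4.86, 4.50 and 4.54 at 2 dpi. They were 5.59, 5.90, 5.29 and 5.27 at 3 dpi, 5.76, 5.87 and 6.00 at 4 dpi, 6.37 at 5 dpi and 6.12, 5.43 and 5.89 at 6 dpi. Every library from 3 dpi on was above every earlier one, among them 3 dpi replicate 2, and neither the step from 3 to 4 dpi nor that from 4 to 6 dpi passed. The window was higher than 1 and 2 dpi by 1.5 (SE 0.20, edgeR adjusted p = 4.9e-05). The step from 2 to 3 dpi was 0.90 (SE 0.26) and did not pass, at an edgeR adjusted p of 0.064, but it did with DESeq2 and without 1 dpi replicate 1 (0.89). Between the window and 6 dpi the difference was 0.09, with a 95% interval of -0.41 to 0.59.

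The ratio of Col12a1 to Col14a1 within a library averaged -1.90 ± 0.59 (SD, n = 6) at 1 and 2 dpi and -2.14 ± 0.48 (SD, n = 8) in the window. The difference of -0.24 did not pass (two-sided exact permutation p = 0.42), and neither did that of 0.40 between the window and 6 dpi (exact permutation p = 0.19). The pair had an r of 0.83 over 17 libraries and of -0.15 after the day means were taken out.

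Col16a1 (ENSMUSG00000040690, chr4:130047840-130099283, plus strand) encodes collagen XVI, a smaller member of the fibril-associated group. It was at 5.73, 6.24 and 6.05 log2 CPM at 1 dpi and at 6.83, 6.84 and 7.03 at 2 dpi. At 3 dpi the values were 7.07, 5.72, 7.52 and 7.34, where replicate 2 was level with the lowest library of 1 dpi. Later libraries were at 7.68, 7.70 and 7.84 at 4 dpi, at 7.90 at 5 dpi and at 8.38, 8.12 and 8.21 at 6 dpi. The window was higher than 1 and 2 dpi by 1.10 (SE 0.23, edgeR adjusted p = 0.0038). Among only those libraries in which Y-linked counts exceeded Xist the difference was 0.96, and the call was lost. From the window to 6 dpi the log2 fold change was -0.68 (SE 0.27, edgeR adjusted p = 0.11), with every library of 6 dpi above every one of the window, and without 3 dpi replicate 2 it was -0.59 and passed.

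The network collagen gene Col8a1 (ENSMUSG00000068196, chr16:57624258-57754737, minus strand) passed in none of the 7 comparisons by edgeR. It was at 7.39, 8.05 and 8.11 log2 CPM at 1 dpi, 8.94, 7.88 and 8.43 at 2 dpi and 8.38, 8.01, 8.90 and 9.14 at 3 dpi. The values then were 8.25, 8.62 and 8.71 at 4 dpi, 9.11 at 5 dpi and 8.31, 8.12 and 8.63 at 6 dpi. The libraries of 4, 5 and 6 dpi were all above those of 1 dpi (the lowest of 6 dpi at 8.12 against 8.11), whereas 2 and 3 dpi overlapped with it. The window against 1 and 2 dpi gave 0.59 (SE 0.23, edgeR adjusted p = 0.13), and without 3 dpi replicate 2 it gave 0.65 and passed.

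Without a GC correction both multiplexin genes were highest at 6 dpi, and Col18a1 also rose between 1 to 2 dpi and the window. Col18a1 (ENSMUSG00000001435, chr10:77052178-77166548, minus strand), the endostatin precursor, lies on the same chromosome 326010 bases beyond Col6a1. Its levels were 4.45, 4.59 and 4.34 log2 CPM at 1 dpi, 4.2, 4.8 and 5.19 at 2 dpi and 5.40, 4.94, 5.22 and 5.56 at 3 dpi. They were 5.72, 5.27 and 5.88 at 4 dpi, 5.84 at 5 dpi and 6.46, 6.14 and 6.14 at 6 dpi. The window was higher than 1 and 2 dpi by 0.97 (SE 0.19, edgeR adjusted p = 0.0022), with an overlap of 2 dpi replicate 3 and 3 dpi replicate 2. It was lower than 6 dpi by -0.67 (SE 0.22, edgeR adjusted p = 0.057), with no overlap. That difference passed without 2 dpi replicate 1 (-0.67), 3 dpi replicate 2 (-0.63) or 4 dpi replicate 3 (-0.72) and without the 5 dpi library (-0.79), and was 0.007 with the GC correction described further on. With that correction the levels of Col18a1 at 6 dpi were 5.72, 5.29 and 6.09. They overlapped with 5.74, 5.38 and 5.89 at 4 dpi and 5.98 at 5 dpi.

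Col15a1 (ENSMUSG00000028339, chr4:47208161-47313167, plus strand) encodes collagen XV, which in the heart lies around cardiomyocytes and capillaries. It was at 8.04, 8.36 and 8.70 log2 CPM at 1 dpi and at 7.79, 8.38 and 9.11 at 2 dpi. At 3 dpi it was at 8.30, 9.78, 8.03 and 8.38, at 4 dpi at 8.49, 8.80 and 8.89, at 5 dpi at 8.76 and at 6 dpi at 9.88, 9.59 and 9.51. Outside 6 dpi only 3 dpi replicate 2 reached the 6 dpi range. The window was lower than 6 dpi by -0.90 (SE 0.34, edgeR adjusted p = 0.087), and without 3 dpi replicate 2 the difference was -1.09 and passed. Over the time course the gene passed without that library too, and not without any other. It shares 14 exonic bases with the antisense gene Gm12426, which had at most 4 counts in a library.

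The log2 ratio of Col18a1 to Col15a1 within a library was -3.81 ± 0.31 (SD, n = 6) at 1 and 2 dpi and -3.20 ± 0.70 (SD, n = 8) in the window. The difference of 0.60 did not pass (two-sided exact permutation p = 0.078, adjusted p = 0.23 over 6 tests). Without 3 dpi replicate 2, the lowest library at -4.84, it was 0.84 and passed, and without all 3 dpi libraries it was 0.74 and passed. At 6 dpi the ratio was -3.41 ± 0.04 (SD, n = 3), within the range of the window.

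The libraries differed in how transcripts of high and low GC content were represented, and this moved with several of these genes. As a measure, the deviation of each gene from its mean level was taken, and the median over the fifth of genes with the lowest GC in their last 500 transcript bases was subtracted from that over the fifth with the highest. It was 0.92 in 6 dpi replicate 1, 1.17 in 6 dpi replicate 2 and 0.29 in 3 dpi replicate 2, against -0.59 to 0.05 in the other 14 libraries. Over 17 libraries it had an r of 0.78 with Col15a1, 0.77 with Col6a2, 0.62 with Col6a1 and -0.65 with Col6a3, as a description. The 3 chains of collagen VI have 44.2 to 49.8% GC in these bases, and Col18a1 has 59.0%, at the 98th percentile of genes tested. A fit with a smooth GC term per library, chosen after the data were seen, left the calls of all 7 comparisons as they were. The difference of the window from 6 dpi was then -1.18 for Col6a2, -0.68 for Col6a1, -0.90 for Col15a1 and 0.66 for Col6a3, so the opposite signs within collagen VI were kept. For Col18a1 it went from -0.67 to 0.007, for Col16a1 from -0.68 to -0.32, and for Col14a1 from -0.36 to -0.67. After the correction the 6 dpi libraries of Col18a1 and Col16a1 overlapped with the window. For Col16a1, 6 dpi replicate 2 was at 7.70 and the 5 dpi library at 7.94. The r between Col6a1 and Col6a2 after the correction was 0.90. The part of GC content in these results beyond this fit was not tested.

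**Figure D5:**
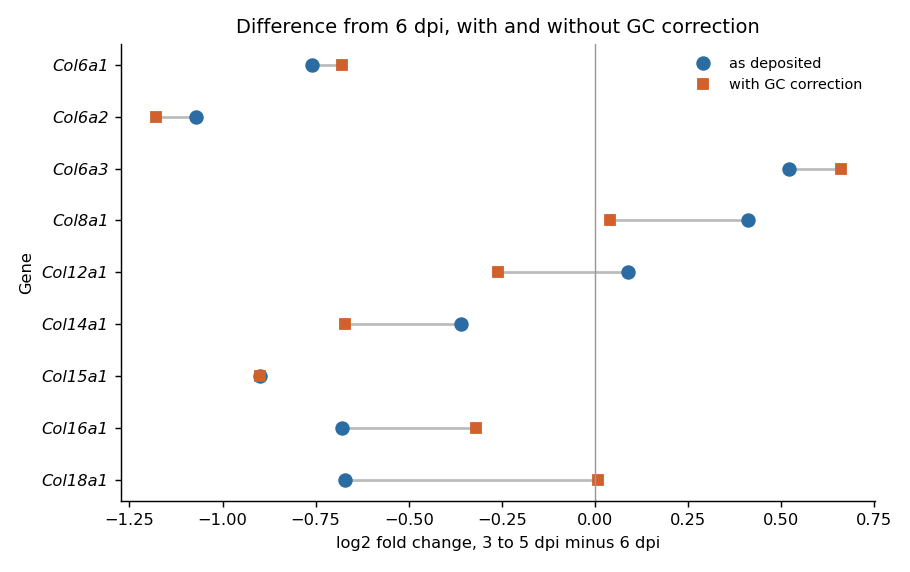
Log2 fold change between the window of 3 to 5 dpi and 6 dpi (x axis) for each gene (y axis), from the counts as deposited (circles) and with a GC correction per library (squares). Col6a1, Col6a2, Col6a3 and Col15a1 move by at most 0.14, whereas Col18a1 moves from -0.67 to 0.007.

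The other collagens and their partners give the setting of these 9 genes. Of 11 fibrillar collagen genes, all tested, 8 changed over the time course, against 15% of all genes tested. In the window 8 were higher than at 1 and 2 dpi, against 5.25% of all genes. There the list's median on the log2 scale was 1.41, beside 0.59 for the 9 genes. Those with the widest range of day means were Col24a1, Col11a1, Col2a1 and Col1a1. Col1a1, the gene whose promoter drives the reporter, rose by 1.64 (SE 0.27, edgeR adjusted p = 0.00061) in the window. Col11a1, a chain that sets fibril width, rose by 3.24 (SE 0.49, edgeR adjusted p = 2e-04) and Col24a1 was at -2.85 log2 CPM, the lowest value of the scale, on average at 1 and 2 dpi and at 0.83 at 3 dpi. Col11a1 was also low early, with day means of -0.71 at 1 dpi and -0.08 at 2 dpi. Col2a1, the cartilage collagen, did not pass in the window (edgeR adjusted p = 0.15).

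Of 24 other non-fibrillar collagen genes 17 were tested, and 5 changed over the time course, against 15% of all genes tested. These were Col9a2, Col6a5, Col8a2 and Col7a1, with the widest ranges, and Col26a1. In the window 3 of the 17 were higher than at 1 and 2 dpi, against 5.25% of all genes. In the comparison with 6 dpi 5 were lower, against 6.25%, with a median of -0.92. Col8a2, the partner chain of Col8a1 in collagen VIII, rose from a day mean of 0.24 log2 CPM at 1 dpi to 5.18 at 6 dpi, and the window was lower than 6 dpi by -2.86 (SE 0.49, edgeR adjusted p = 0.0019), whereas Col8a1 gave 0.41 in that comparison. Col6a5, a further collagen VI chain, was at -0.43 at 3 dpi and 3.08 at 6 dpi, with a window below 6 dpi by -3.86 (SE 1.04, edgeR adjusted p = 0.023). Its day mean was -1.92 at 4 dpi, and its SD within a day reached 2.23. Col9a2, a chain of the fibril-associated collagen IX of cartilage, rose by 3.00 (SE 0.49, edgeR adjusted p = 0.00051) in the window, and Col7a1, the anchoring fibril collagen, by 1.92 (SE 0.44, edgeR adjusted p = 0.0083). Like Col6a5 and Col8a2, both were low early, with day means of -1.02 for Col9a2 at 2 dpi and 0.08 for Col7a1 at 1 dpi. The scale ends at -2.85, so the fold changes of these genes rest on low levels. The 7 genes not tested, among them Col6a4 and Col10a1, had at most 26 counts in a library.

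Of 22 receptors, binding partners and processing enzymes, all tested, 9 changed over the time course, against 15% of all genes tested. In the window 6 were higher than at 1 and 2 dpi, against 5.25% of all genes, and 3 lower, against 2.24%. Cspg4, the NG2 proteoglycan that binds collagen VI and also marks mural cells, rose by 2.07 (SE 0.25, edgeR adjusted p = 2.2e-05). Antxr2, a receptor that takes up collagen VI, fell by 0.68 on the log2 scale (SE 0.19, edgeR adjusted p = 0.028), and Tnxb, a tenascin that joins fibril-associated collagens to fibrils, fell by 1.2 (SE 0.31, edgeR adjusted p = 0.018). Against 6 dpi 5 of the 22 were lower in the window and 0 higher, against 6.25% and 5.29% of all genes. The lower genes included Matn4, a matrilin that links collagen VI filaments (-3.80, SE 0.44, edgeR adjusted p = 0.00014), the small proteoglycan gene Fmod (-3.30, SE 0.36, edgeR adjusted p = 8.3e-05), Tnxb (-1.81) and Antxr2 (-0.93). Itga11 was the fifth, at -0.79.

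The genes whose levels were most like those of each collagen gene over the 17 libraries were sought among 8918 genes with a mean of at least 100 counts. For Col12a1 the highest r was with Cthrc1 (0.939), the marker of reparative fibroblasts, followed by Pxdn and Runx1. For Col14a1 it was with Sfrp2 (0.943), followed by Cthrc1 (0.928) and Col5a1. Col16a1 was closest to Sfrp1 (0.914) and Col18a1 to Sdc3 (0.92) and then to Sfrp1 (0.90). Col6a1 was closest to Col6a2, and Col6a2 to Dmpk (0.955) and Cd81 (0.938). Col6a3 shared its highest r, 0.897, among Fbxo25, Mndal and Scd2, Col8a1 was closest to 4930402H24Rik (0.879), and Col15a1 to Mgat1 (0.912) and Cd248 (0.908). These r describe 17 libraries of the same time course and carry no test. Cthrc1 was among the genes by which the study set the window, so likeness to it and a rise in the window are not independent.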

How the data were processed

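For the MARS-seq reads the authors used bcl2fastq (1.2.4) for demultiplexing, STAR with the mm10 genome for alignment, and featureCounts with an Ensembl annotation. The deposited values are raw counts per gene, without normalization, in 1 column per library. Whether PCR copies were collapsed is not given in the sources used here.

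Counts were tested with edgeR (4.0.16, R 4.3.3), using TMM library sizes, a quasi-likelihood fit with day as a factor over all 17 libraries, and Benjamini-Hochberg adjustment over the 14030 genes that reached 10 counts in 3 or more libraries. The window is the mean of the 3, 4 and 5 dpi coefficients, and the single 5 dpi library takes its spread from the other days. The prior count of the log2 CPM levels was 2. Ratios had 0.5 added to each count and were compared by exact permutation tests. DESeq2 (1.42.0), other normalizations, filters, a replicate block, a GC correction and leaving out each of 16 libraries were the alternatives. All 9 members were named, with up to 4 genes from each other list, those changed over the time course with the widest range of day means. Col26a1, Antxr2, Itga11, Lyz2, Egfl7, Tek and Pecam1 were added after their values were seen. The members and lists were chosen with earlier results of these data known. Replicates differed beyond counting error in all 18 pairs within a day. Positions are from GENCODE vM21 (GRCm38), another release than the one counted on. Depth per library is given with the results, and the lowest library, at 8021815 counts, sets the precision of low genes.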

Additional observations from a re-analysis of the deposited data

Results flagged for a closer look

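At 3 dpi, the only day with 4 libraries, the gap between the farthest library and its neighbour was divided by the range of the day for 12 measures, the 9 levels and the 3 ratios. In 2 of them it was above Dixon's 95% critical value for 4 values, where chance gives about 0.6 of 12. The log2 ratio of Col6a3 to Col6a1 and Col6a2 was -1.83 in 3 dpi replicate 2 (gap over range 0.931), and the log2 ratio of Col18a1 to Col15a1 was -4.84 in the same library (0.957). This library was the farthest of its day in 11 of the 12 measures, all but the Col14a1 level. In its collagen VI ratio and its GC measure (0.29) it lay on the side of 6 dpi replicates 1 and 2, and in Col16a1 (5.72 log2 CPM) on that of 1 dpi. The cause was not tested.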

How the results depend on the processing

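The count of genes changed over the time course was 5, and between 4 and 7 over all alternatives. The share of all genes changed was 15%, and 9.38 to 26.8%. In the window against 1 to 2 dpi 4 genes were higher, and between 3 and 5 over all alternatives. There the share of all genes higher was 5.25%, and 4.17 to 7.31%. Both counts stayed within 1.5 times of the value given. The counts of 0 from 1 to 2 dpi and from 3 to 4 dpi stayed at 0, against 0.0928 to 0.744% and 0.904 to 6.27% of all genes. From 2 to 3 dpi 1 gene was higher, against 1.82% of all genes. The count was 2 with DESeq2 (4.7%) and with every gene of at least 1 count (2.99%), and 0 with the replicate block (0.784%). With 1 library left out it was 0 to 2 (0.194 to 2.93%). From 4 to 6 dpi (0 genes) the count was 1 with DESeq2, against 3.15% of all genes higher. Against 6 dpi 1 gene was lower in the window, against 6.25% of all genes. The count was 4 with DESeq2 (8.82%), and 3 with every gene of at least 1 count (5.32%) or without the 5 dpi library (7.55%). It was 2 with at least 10 counts in every library (9.21%). It was 0 with only the days compared (3.9%) or without the 3 dpi libraries (3.44%). With 1 library left out it was 0 to 5 (1.32 to 11.3%), 5 being without 3 dpi replicate 2 (11.3%). The causes were not tested. The ratio of Col18a1 to Col15a1 against 1 to 2 dpi (0.60) passed without the 3 dpi libraries (0.74) and ranged from 0.49 to 0.84 with 1 library left out.

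Signs changed only in differences that did not pass in any of the fits named here, other than Col18a1 against 6 dpi. With the replicate block, which changed no call but those of Col14a1 from 2 to 3 dpi and of Col6a2 over the time course, the step from 2 to 3 dpi was 0.007 for Col6a2, -0.03 for Col8a1 and -0.01 for Col16a1, and from 3 to 4 dpi it was 0.10 for Col8a1. Same-numbered libraries did not deviate together on average (mean r 0.005 over 30 pairs, against -0.004 over 60 pairs of different number). Whether they shared more than the number is not known. The 5 dpi library is replicate 3 in its title and 1 in its column name, and the block used the number of the title. Without the 5 dpi library Col12a1 was at -0.13 against 6 dpi. With the GC correction it was at -0.26 there and Col18a1 at 0.007, and from 4 to 6 dpi Col8a1 was at 0.22 and Col12a1 at 0.35. With 1 library left out, signs changed, with these ranges, from 1 to 2 dpi for Col15a1 (-0.28 to 0.40), from 2 to 3 dpi for Col6a1 (-0.15 to 0.30), Col6a2 (-0.39 to 0.02), Col8a1 (-0.03 to 0.48), Col15a1 (-0.28 to 0.69) and Col16a1 (-0.05 to 0.42). The same held from 3 to 4 dpi for Col6a1 (-0.23 to 0.43), Col6a2 (-0.22 to 0.42), Col6a3 (-0.31 to 0.02), Col8a1 (-0.30 to 0.07), Col14a1 (-0.24 to 0.48) and Col15a1 (-0.25 to 0.49). It also held from 4 to 6 dpi for Col12a1 (-0.20 to 0.13), and against 6 dpi for Col12a1 (-0.08 to 0.25). The 8 libraries of the window include 1 at 5 dpi, and no depth limit applied to these genes, which had at least 172 counts in each library.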

Other observations

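In 6 dpi replicate 2, Col8a1, Col14a1 and Col16a1 each had exactly 3259 counts, and no other gene of that library had this value. It was the only value of at least 3000 counts in that library held by 3 or more genes, and the other libraries had 0 to 8 such values. The results without this library are among those that leave out each library in turn.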
